A study of Mus musculus with 123 samples.

Results

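The change between the end of sleep deprivation and 6 h of recovery was followed within sleep-deprived mice, by setting cerebral cortex taken at T36 against cortex taken at T30. The comparison held 6 of the 62 RNA-seq animals, 3 at T30 and 3 at T36, all labelled batch 1, and covered all 13842 genes of the deposited table. The mice were male C57BL/6J aged 11 to 12 weeks, deprived of sleep through the first 6 h of the light period by gentle handling and, by the protocol, left undisturbed after T30. T36 falls at the end of the light period, ZT12, where ZT counts hours from light onset. The T36 labels place these animals during deprivation and the T30 labels after it, whereas the protocol ends deprivation at T30, and the protocol's time was used here. Undisturbed controls of the same strain, sex and age, 5 killed at ZT6 and 5 at ZT12, gave the change over the same clock hours in mice that had not been kept awake; 3 of each 5 were labelled batch 1 and 2 batch 2. Every RNA library of these groups came from a different killed mouse, so no animal was followed over time. The tissue was whole cortex, in which fewer cells of a type and less RNA per cell cannot be told apart.

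Cortical neurons answer activity with immediate early genes, which encode transcription factors and synaptic proteins and need no new protein to be switched on, and then with slower effector genes. The products of several early genes, such as the dual-specificity phosphatases, switch off the MAP kinase signalling that induces them. Prolonged waking is known to raise these genes in rodent cortex together with chaperones of the endoplasmic reticulum, and to lower cold-inducible RNA-binding proteins, while the circadian clock and corticosterone drive other genes by time of day.

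Between T30 and T36, 923 genes rose and 966 fell (limma, Benjamini-Hochberg adjusted p below 0.05), which is 6.67% and 6.98% of the genes tested. In controls 248 genes rose and 288 fell between ZT6 and ZT12, 1.79% and 2.08% of the same genes. The change in deprived mice differed from the change in controls for 1573 genes, with 777 above the control change (5.61%) and 796 below it (5.75%). Among the falls of the deprived mice 31 were larger than 1 on the log2 scale, and among the rises 11. Of the 1889 genes called in recovery, 74 also moved in the same direction in controls, 39 down and 35 up, and 58 moved in the opposite direction. Of the recovery rises and falls 93.0% and 93.1% had no call in controls. Of the 248 control rises 185, and of the 288 control falls 219, had no call in recovery. In controls 3.79% of the recovery rises rose and 3.25% fell, and 2.90% of the recovery falls rose and 4.04% fell. The shares of all genes, 1.79% and 2.08%, were lower. In recovery 14.1% of the control rises rose and 11.3% fell, and 10.4% of the control falls rose and 13.5% fell, against 6.67% and 6.98%. Across genes, the recovery change and the control change, which share no library, had a Pearson r of -0.04 over 13842 genes, which are not independent replicates. Leaving out the T36 library of replicate 4 lowered the recovery count to 1138. The control count was 323 without ZT12 replicate 6 and 349 without ZT6 replicate J76N2, and with batch 1 alone the control count was 75 and the difference count 722. Libraries of the 4 groups correlated with the mean of the rest of their own group at 0.995 to 0.997, and none stood apart. The summed level of excitatory neuron markers was 3211 to 3434 at T30 and 3314 to 3521 at T36, and that of 3 measured choroid plexus markers 147 to 148 and 152 to 153. Of 13 oligodendrocyte markers 11 had recovery estimates below 0, against 48.8% of all genes, and 1 fell (median -0.14). In controls 1 of the 13 fell, and for 1 the recovery change was above the control change. Their summed level was 1889 to 2532 at T30 and 1979 to 2143 at T36. All 10 mural cell markers had recovery estimates above 0, against 51.2% of all genes, and none was called in recovery (median 0.09). In controls 2 of the 10 fell. For 2, Pdgfrb and Vtn, the recovery change was above the control change, lost in 7 and 3 of 16 fits with a library left out. The summed level of mural markers was 180 to 200 at T30 and 190 to 213 at T36. The part of these markers in the changes was not tested. The 12 largest rises and 12 largest falls named by rule had to have no overlap between T30 and T36, so that their groups lie apart is a description only.

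**Figure D1:**
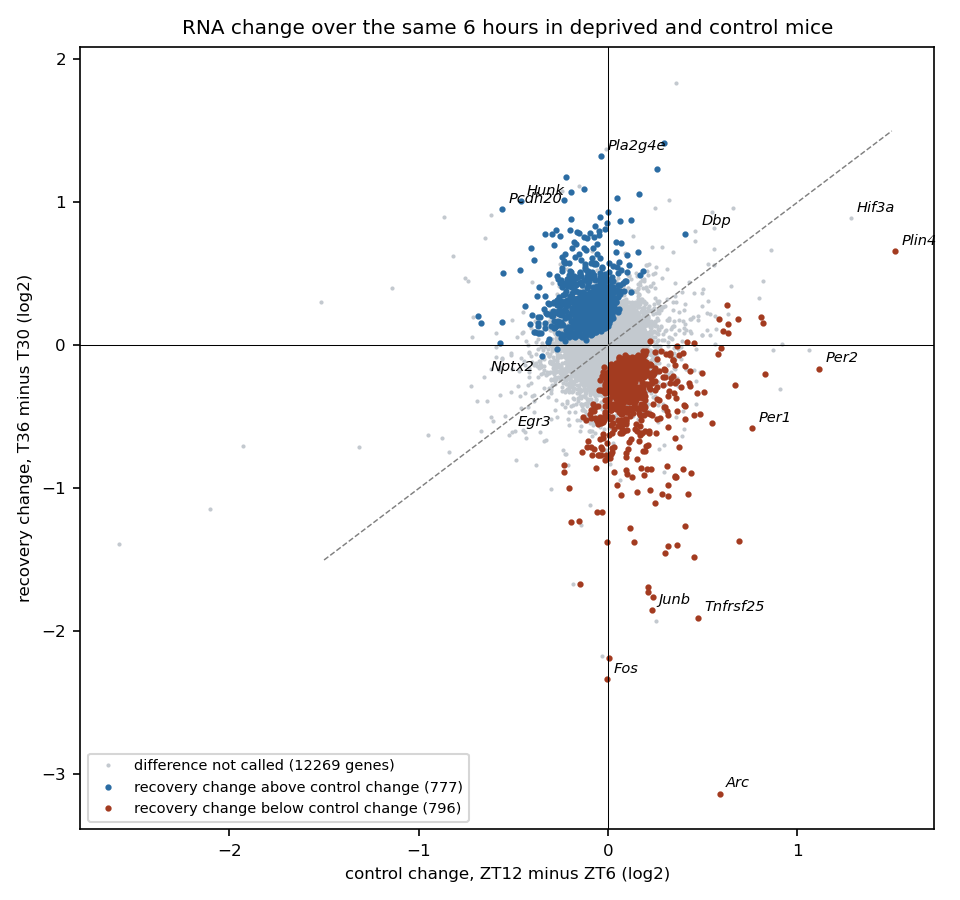
Each point is 1 gene, with its control change from ZT6 to ZT12 on the x axis and its change from T30 to T36 in deprived mice on the y axis, both in log2 units; the dashed line marks equal changes. The 777 blue and 796 red genes, whose recovery change lay above or below the control change, spread along the y axis, with Arc lowest among the named genes and Plin4 and Per2 far to the right.

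The largest falls were those of activity-induced genes. Of 20 measured immediate early genes 18 fell and 1, Jun, rose, against 6.98% and 6.67% of all genes, with a median change of -1.25 against 0.004 over all genes. In controls 1 of the 20 fell and none rose, against 2.08% and 1.79% of all genes. Of the 18 falls 15 stayed called whichever of the 6 deprived libraries was left out. The recovery change was below the control change for 14 of the 20 and above it for 1, against 5.75% and 5.61% of all genes. Of the 14, 8 stayed called whichever of the 16 libraries was left out. Arc, a synaptic protein that forms capsid-like particles and regulates AMPA receptor uptake (chr15:74669081-74672570, GRCm38), had log2 levels of 8.54, 8.21 and 8.55 at T30 and of 5.40, 5.12 and 5.39 at T36. All 3 T36 libraries lay below all 3 T30 libraries, and inside the control range at ZT12, 4.93 to 6.67. The fall was 3.13 on the log2 scale (SE 0.71, adjusted p = 0.00171, limma), 8.77-fold, and the control change was 0.59 (SE 0.55). Fos, a subunit of the AP-1 transcription factor, went from 6.36, 5.93 and 6.02 to 4.03, 3.49 and 3.79, a change of -2.33 (SE 0.58, adjusted p = 0.0040). The groups did not overlap, and the controls had a change of -0.0046 with libraries from 2.38 to 4.67 over both times. The test of the difference for Fos passed (adjusted p = 0.0298) but was lost within batch 1 alone (adjusted p = 0.127) and in 8 of 16 fits with a library left out.

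Fos, Nr4a1, Dusp1 and Btg2 are 4 of the 12 genes with the largest falls; the 250 bases before their start sites (RefSeq, GRCm38.p6, 5′ to 3′ on the gene's own strand) show what is shared and what is not among promoters whose genes fell together. Capitals mark a cyclic AMP response element, TGACGTCA, bound by CREB, and the E-box CACGTG; both are palindromes, so both strands were read at once, and they do not overlap here.
Fos: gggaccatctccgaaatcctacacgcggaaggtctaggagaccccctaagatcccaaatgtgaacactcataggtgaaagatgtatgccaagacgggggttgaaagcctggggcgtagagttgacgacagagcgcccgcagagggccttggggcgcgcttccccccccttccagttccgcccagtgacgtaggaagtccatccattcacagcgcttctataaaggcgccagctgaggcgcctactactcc
Nr4a1: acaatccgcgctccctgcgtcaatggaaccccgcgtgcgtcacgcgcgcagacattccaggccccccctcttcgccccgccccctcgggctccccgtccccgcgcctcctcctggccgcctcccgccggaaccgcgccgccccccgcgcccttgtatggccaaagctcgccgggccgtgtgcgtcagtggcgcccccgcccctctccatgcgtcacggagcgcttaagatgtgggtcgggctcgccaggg
Dusp1: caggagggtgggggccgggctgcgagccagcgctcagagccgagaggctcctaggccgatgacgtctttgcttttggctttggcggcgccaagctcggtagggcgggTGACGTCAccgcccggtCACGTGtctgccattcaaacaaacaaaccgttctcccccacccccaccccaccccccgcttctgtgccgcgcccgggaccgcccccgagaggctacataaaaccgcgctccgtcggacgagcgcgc
Btg2: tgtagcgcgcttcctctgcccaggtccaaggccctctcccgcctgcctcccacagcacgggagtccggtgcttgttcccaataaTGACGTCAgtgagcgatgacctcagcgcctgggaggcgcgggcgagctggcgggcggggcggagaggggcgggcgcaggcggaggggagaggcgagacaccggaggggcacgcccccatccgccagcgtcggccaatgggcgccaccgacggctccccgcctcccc
The windows are chr12:85473640-85473889 on the plus strand, chr15:101266596-101266845 on the plus strand, chr17:26508473-26508722 on the minus strand and chr1:134079156-134079405 on the minus strand. Dusp1 and Btg2 held the full element and Fos and Nr4a1 did not. It lay in 2 of the 8 falling genes with a window and in none of the 11 rising genes with one, against 3.07% of 10251 genes of the table that had a window. The CArG box, the site of serum response factor, was found in none of the 8 and in 1.41% of the genes. Among 15 immediate early genes with a window, 1 held the cyclic AMP response element and 1 the CArG box, 6.67% each. Arc had no window, and bases farther than 250 before a start were not searched. These are matches of letters, not measured sites.

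Junb, another AP-1 subunit, had levels of 6.41, 6.22 and 6.28 at T30 and of 4.36, 4.36 and 4.64 at T36. The change was -1.85 (SE 0.44, adjusted p = 0.00301), against 0.23 (SE 0.34) in controls, and the T36 values lay among those of ZT12, 4.22 to 5.28. Nr4a1, an orphan nuclear receptor, went from 7.47, 7.14 and 7.40 to 5.70, 5.37 and 5.76, a change of -1.72 (SE 0.38, adjusted p = 0.00129). Its relative Nr4a3 changed by -1.27 (SE 0.29) and Nr4a2 by -1.17 (SE 0.28), and neither overlapped between the times. Npas4, a neuronal activity-dependent transcription factor, changed by -1.26 (SE 0.33, adjusted p = 0.00736), with T30 levels of 4.93, 4.79 and 4.62 and T36 levels of 3.60, 3.58 and 3.38. The difference from the control change was not called for Npas4 (adjusted p = 0.0786). Egr2, a zinc-finger transcription factor, fell from 4.20, 3.59 and 4.32 to 2.40, 1.09 and 2.07, a change of -2.18 (SE 0.54, adjusted p = 0.00423). The difference from controls for Egr2 was called (adjusted p = 0.0304) and lost in 7 of 16 fits with a library left out. That difference was also lost within batch 1 alone (limma, adjusted p = 0.161). Egr2 levels were low. Its low level makes the log2(level + 0.5) scale understate the change. Sik1, a salt-inducible kinase that restrains CREB signalling, changed by -1.45 (SE 0.27), Ier2 by -1.40 (SE 0.36) and Btg2, an antiproliferative protein, by -1.38 (SE 0.35). Jun was the exception: it rose from 4.41, 4.40 and 4.17 to 4.74, 4.63 and 4.75, by 0.38 (SE 0.11, adjusted p = 0.0144), while controls changed by -0.17 (SE 0.09). The rise of Jun was lost when the T30 or the T36 library of replicate 4 was left out (adjusted p = 0.113 and 0.0648).

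**Figure D2:**
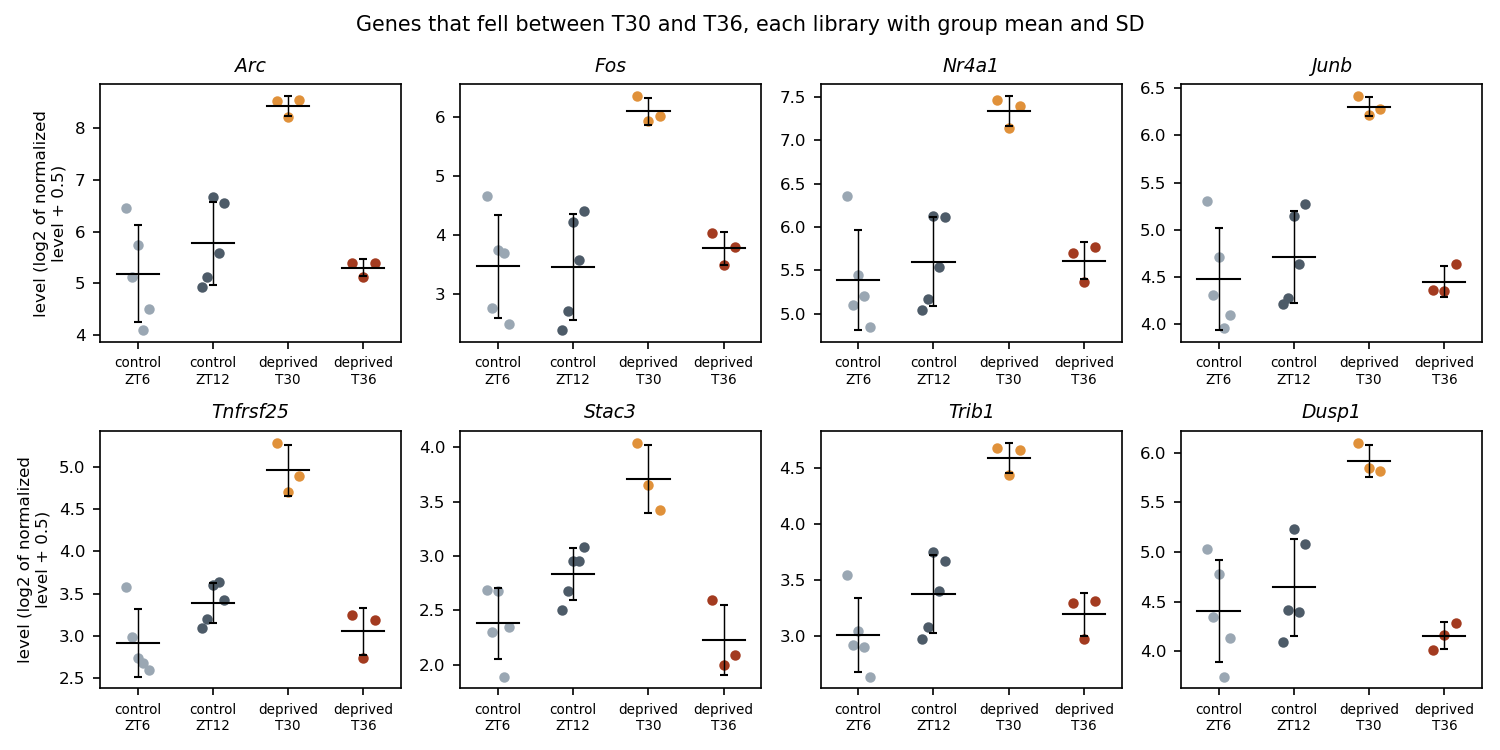
Log2 levels of 8 genes that fell, 1 point per library, with the group mean (line) and SD (bar) in controls at ZT6 and ZT12 and deprived mice at T30 and T36. In every panel the 3 T36 libraries lie below the 3 T30 libraries; for Arc the T30 values are 8.21 to 8.55 and the T36 values 5.12 to 5.40.

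Negative regulators of MAP kinase signalling fell with them. Of 13 measured, 8 fell and 1, Dusp8, rose, against 6.98% and 6.67% of all genes, with a median of -0.44 (controls: none called, median 0.10). For 9 the recovery change was below the control change and for 1 above it, against 5.75% and 5.61% of all genes. Of these 9, 5 stayed called whichever library was left out. Dusp1, a phosphatase of nuclear MAP kinases, went from 6.10, 5.84 and 5.81 to 4.02, 4.16 and 4.29, a change of -1.76 (SE 0.45, adjusted p = 0.00509). All T36 libraries were lower than all T30 libraries. Dusp4 changed by -1.05 (SE 0.21), Dusp5 by -1.04 (SE 0.26), Dusp6 by -0.90 (SE 0.25) and Spry4, a Sprouty inhibitor of growth factor signalling, by -0.91 (SE 0.18). Dusp8 rose by 0.25 (SE 0.06). The call of Dusp6 was lost without T36 replicate 2 (adjusted p = 0.123) and that of Dusp8 without T36 replicate 4 (adjusted p = 0.0542). Of the 8 falls 4 stayed called whichever library was left out.

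Genes outside these lists were among the largest falls. Tnfrsf25, the death receptor that binds TL1A and is best known in T cells, had levels of 5.29, 4.70 and 4.89 at T30 and of 3.24, 2.73 and 3.19 at T36, a change of -1.90 (SE 0.30, adjusted p = 8.95e-06). Controls changed by 0.48 (SE 0.23), and the difference was -2.38 (SE 0.37, adjusted p = 1.56e-05). Stac3, known for coupling excitation to contraction in skeletal muscle, went from 4.04, 3.65 and 3.43 to 2.60, 2.00 and 2.09, a change of -1.48 (SE 0.25, adjusted p = 4.00e-05). Trib1, a pseudokinase that directs protein degradation, went from 4.67, 4.43 and 4.66 to 3.30, 2.98 and 3.31, a change of -1.39 (SE 0.33, adjusted p = 0.00244). Crip3, a LIM-domain protein named after its values were seen, ended below its controls: its levels of 3.15, 3.07 and 3.08 became 1.85, 1.84 and 1.84, while the ZT12 controls ran from 2.50 to 2.90. It fell by 1.26 (SE 0.15) in deprived mice, rose by 0.41 (SE 0.12) in controls (a rise lost in 6 of 10 fits with a library left out), and at T36 differed from controls by -0.83 (SE 0.14).

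Slower activity-regulated genes divided. Of 21 measured, 9 fell in recovery and 1 rose, against 6.98% and 6.67% of all genes. In controls 6 fell and 1 rose, against 2.08% and 1.79%. Of the 9 recovery falls 6 held in every fit with a library left out. Homer1, whose short form loosens postsynaptic scaffolds, went from 7.99, 7.95 and 8.20 to 7.22, 7.33 and 6.96, a change of -0.88 (SE 0.16, adjusted p = 0.000113), and its change was below that of controls (adjusted p = 0.0297). Pcsk1, a prohormone convertase, changed by -0.74 (SE 0.12), Gadd45b by -0.60 (SE 0.16) and Nptx1, a neuronal pentraxin, by -0.42 (SE 0.07). The table gives 1 value per gene, so short and long Homer1 forms were not separated. The difference for Homer1 was lost in 7 of 16 fits with a library left out, with adjusted p up to 0.115. It was also lost within batch 1 alone (limma, adjusted p = 0.272).

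Another set stayed high at T36 against controls of that hour. Nptx2, a pentraxin that gathers AMPA receptors, had levels of 5.62, 5.90 and 6.10 at T30 and of 5.73, 5.74 and 5.49 at T36, a change of -0.22 (SE 0.15) that was not called. Its controls fell from between 4.68 and 5.38 to between 4.12 and 4.39, so all T36 libraries lay above all ZT12 libraries. T36 minus ZT12 was 1.40 (SE 0.14) and T30 minus ZT6 0.96 (SE 0.14). Crh, corticotropin-releasing hormone, which cortical interneurons make, had 4.01, 4.02 and 4.27 at T30 and 4.00, 3.86 and 4.00 at T36 against 2.54 to 2.94 at ZT12. T36 minus ZT12 was 1.20 (SE 0.12) for Crh and 0.91 (SE 0.07) for Sorcs3, a sorting receptor of the postsynaptic density. At T42, 12 h after deprivation, the differences from ZT18 controls were 0.17 (SE 0.14), 0.32 (SE 0.12) and 0.19 (SE 0.07).

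Egr3, Cdkn1a and Inhba fell in deprived mice and in controls, and the elevation over controls at T30 was still present at T36. Egr3, a transcription factor related to Egr2, changed by -0.61 (SE 0.20) in recovery and by -0.51 (SE 0.15) in controls, and stood 1.21 above controls at T30 and 1.11 above at T36. Cdkn1a, the cyclin-dependent kinase inhibitor p21, changed by -0.63 (SE 0.18) and -0.52 (SE 0.14), and stood 1.28 and 1.17 above controls. Inhba, the activin A subunit, changed by -0.53 (SE 0.17) and -0.61 (SE 0.13), and stood 0.95 and 1.03 above. The differences between recovery and control change, -0.10 (SE 0.25), -0.11 (SE 0.23) and 0.08 (SE 0.22), were not called, which does not show that the changes were equal. Each of the 3 recovery falls was lost when the T30 or the T36 library of replicate 4 was left out, with adjusted p up to 0.149, 0.145 and 0.253. The control fall was lost in 5 of 10 such fits for Egr3 (adjusted p up to 0.248) and in 3 for Cdkn1a (adjusted p up to 0.141). With only the libraries compared, the control adjusted p was 0.158 for Egr3 and 0.136 for Cdkn1a.

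**Figure D3:**
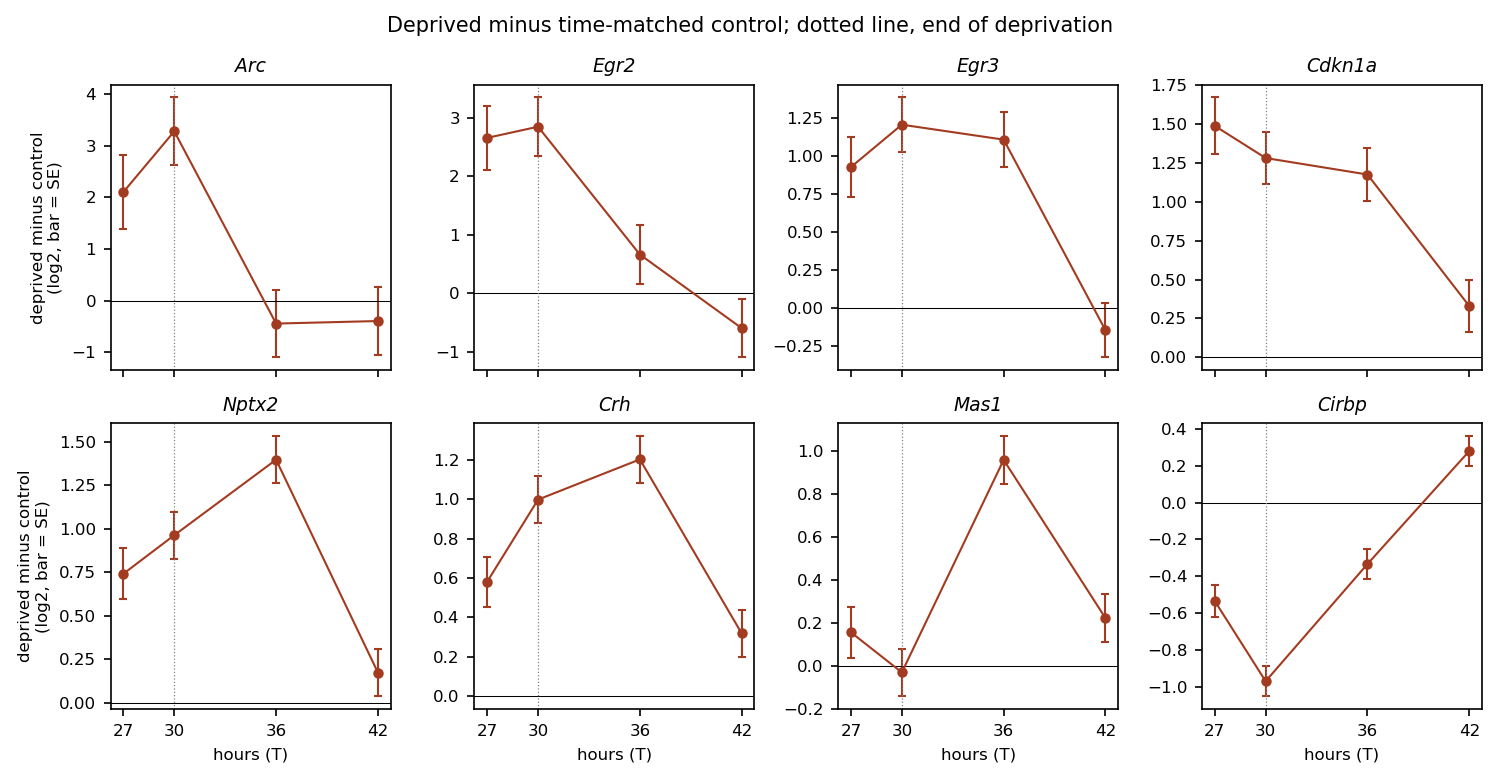
Deprived minus time-matched control, in log2 units with the SE of the fit, at T27 (3 h into deprivation), T30, T36 and T42; the dotted line marks the end of deprivation at T30. At T36 Arc is at -0.45 (SE 0.66) and Egr2 at 0.66 (SE 0.50); Egr3, Cdkn1a, Nptx2 and Crh remain between 1.11 and 1.40 above controls, and Mas1 departs from controls at T36, by 0.96.

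Endoplasmic reticulum chaperones and unfolded protein response genes fell without exception among those called: 12 of 26 fell and none rose, with 25 of 26 estimates below 0 and a median of -0.18 (controls: none called, median -0.02). Over all genes 6.98% fell, 6.67% rose and 48.8% of estimates were below 0. The recovery change was below the control change for 9 of the 26, against 5.75% of all genes. Of the 12 falls 8 held with any library left out. Hspa5, the chaperone BiP, went from 8.05, 7.92 and 7.96 to 7.63, 7.08 and 6.91, a change of -0.77 (SE 0.13, adjusted p = 6.02e-05), 1.70-fold. The T36 libraries lay below the T30 libraries, and 1 of the 3, at 7.63, lay above all ZT12 controls, which ran from 6.78 to 7.09. Sdf2l1, a partner of BiP, went from 4.71, 4.48 and 4.58 to 4.03, 3.52 and 3.46, a change of -0.92 (SE 0.16, adjusted p = 6.48e-05). Creld2, an ER stress-inducible protein, changed by -0.76 (SE 0.10), Pdia4, a disulfide isomerase, by -0.75 (SE 0.11) and Xbp1, the transcription factor of the response, by -0.52 (SE 0.08). Of 27 cytosolic heat shock genes 5 fell and none rose, against 6.98% and 6.67% of all genes, although 26 estimates were below 0 (median -0.12). Hspb1, a small heat shock protein, changed by -0.80 (SE 0.18) and remained 0.59 (SE 0.17) above controls at T36.

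**Figure D4:**
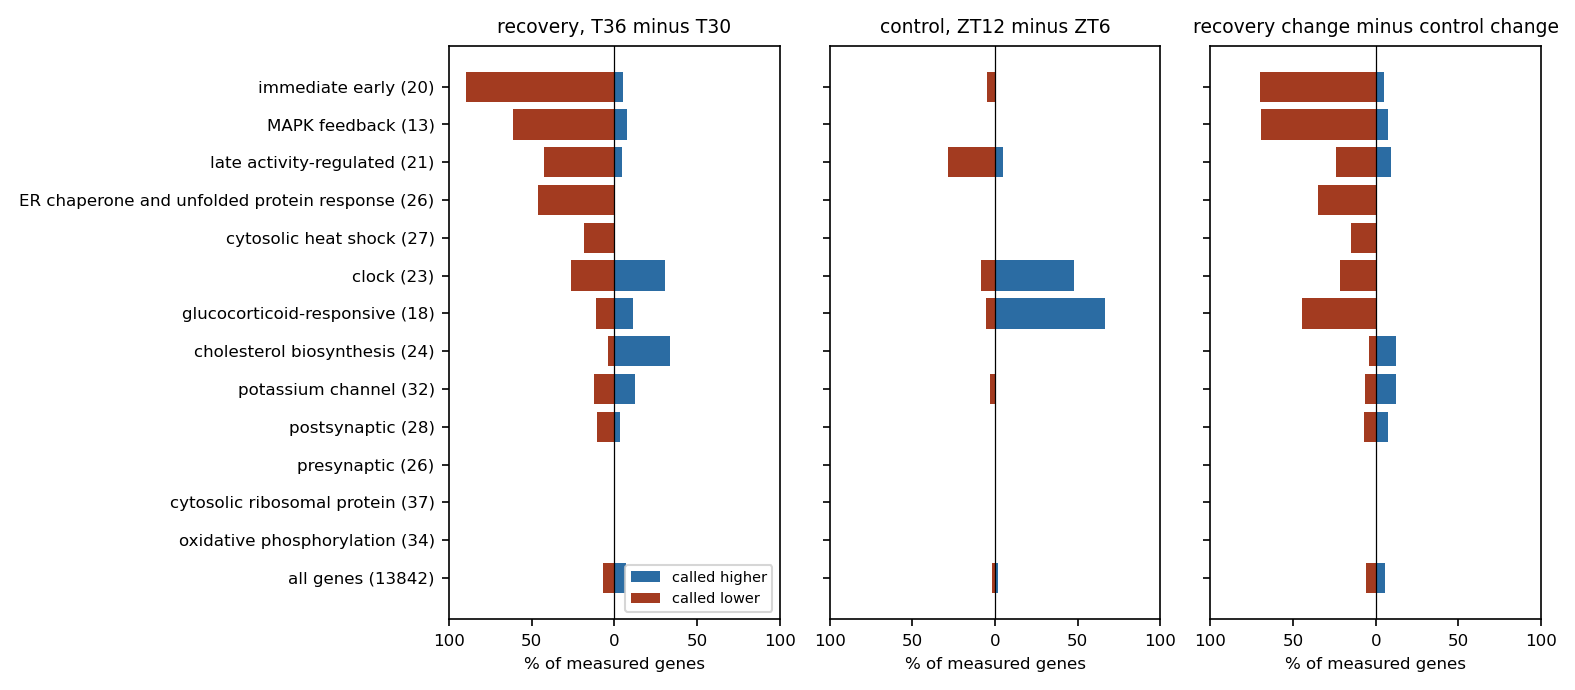
Share of the measured genes of each list (number in brackets) called higher (blue, to the right) or lower (red, to the left) in the recovery change, in the control change and in the difference between those changes. Immediate early genes fell in recovery (18 of 20, against 6.98% of all genes). Glucocorticoid-responsive genes rose in controls (12 of 18, against 1.79% of all genes).

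The 12 largest rises named by rule included Kcnj2 of the potassium channel list and Dbp of the clock list. Pla2g4e, a cytosolic phospholipase A2 that makes N-acyl phospholipids (chr2:120166412-120245630, GRCm38), had levels of 2.40, 2.56 and 2.32 at T30 and of 3.35, 3.81 and 4.10 at T36. It rose by 1.32 (SE 0.19, adjusted p = 1.52e-06), 2.50-fold, and controls changed by -0.03 (SE 0.14). The groups did not overlap, and T36 fell among the ZT12 controls, 3.64 to 4.00, with 1 library below and 1 above them. Zfp46, a zinc-finger protein, went from 4.64, 4.77 and 4.69 to 5.46, 5.58 and 5.69, a rise of 0.88 (SE 0.08, adjusted p = 3.83e-10), and at T36 differed from controls by -0.08 (SE 0.08). Adam33, a membrane metalloproteinase, rose by 0.88 (SE 0.16), Strip2 by 0.71 (SE 0.11) and Hecw2, a ubiquitin ligase, by 0.71 (SE 0.16). Kcnj2, the inward rectifier Kir2.1, rose by 0.79 (SE 0.22, adjusted p = 0.00967), and its rise was the only one of the 24 largest changes named by rule that was lost without a library, the T36 library of replicate 2 (adjusted p = 0.0717). Wnt ligand Wnt9a rose from 3.41, 3.42 and 3.41 to 4.11, 4.13 and 4.18, by 0.73 (SE 0.10), and Dact2, which inhibits Wnt and TGF-beta signalling, from 5.09, 5.32 and 5.38 to 5.88, 6.15 and 6.12, by 0.78 (SE 0.10). Both genes lay above every ZT12 control at T36, which ran from 3.74 to 3.95 and from 5.59 to 5.84.

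Several rises ran against the control change and ended above it. Pcdh20, a protocadherin of the cell surface, had levels of 3.20, 3.44 and 3.45 at T30 and of 4.12, 4.53 and 4.32 at T36, while controls went from between 3.68 and 4.21 to between 3.15 and 3.58. It rose by 0.95 (SE 0.12, adjusted p = 3.63e-07) where controls fell by 0.56 (SE 0.10, adjusted p = 0.000118), a difference of 1.51 (SE 0.16, adjusted p = 3.00e-09). Before recovery it had been below controls, by -0.93 at T27 and -0.59 at T30, and at T36 it was 0.92 (SE 0.11) above them. Hunk, a serine-threonine kinase of the AMPK-related group, crossed in the same way, from 3.35, 3.38 and 3.32 to 4.28, 4.48 and 4.31, against 3.53 to 3.75 at ZT12. Its control change of -0.46 (SE 0.15) was not called (adjusted p = 0.0843), and the difference was 1.47 (SE 0.25). Kcns2, a silent subunit that modifies Kv2 channels, rose by 0.68 (SE 0.10) where controls fell by 0.41 (SE 0.08). Mas1, the receptor for angiotensin 1-7, behaved otherwise before recovery: at T30 it stood at -0.03 (SE 0.11) from controls, with levels of 4.26, 4.64 and 4.66. At T36 its levels were 5.22, 5.00 and 4.93 against 4.03 to 4.19 at ZT12, a rise of 0.53 (SE 0.12) where controls fell by 0.46 (SE 0.09). Lemd1 rose by 0.60 (SE 0.12) with a control change of -0.39 (SE 0.09), and Nrn1, the secreted neurite-promoting protein neuritin, by 0.22 (SE 0.06) with a control change of -0.30 (SE 0.05). The rise of Nrn1 was lost without T30 replicate 3 or T36 replicate 1 (adjusted p up to 0.0879).

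**Figure D5:**
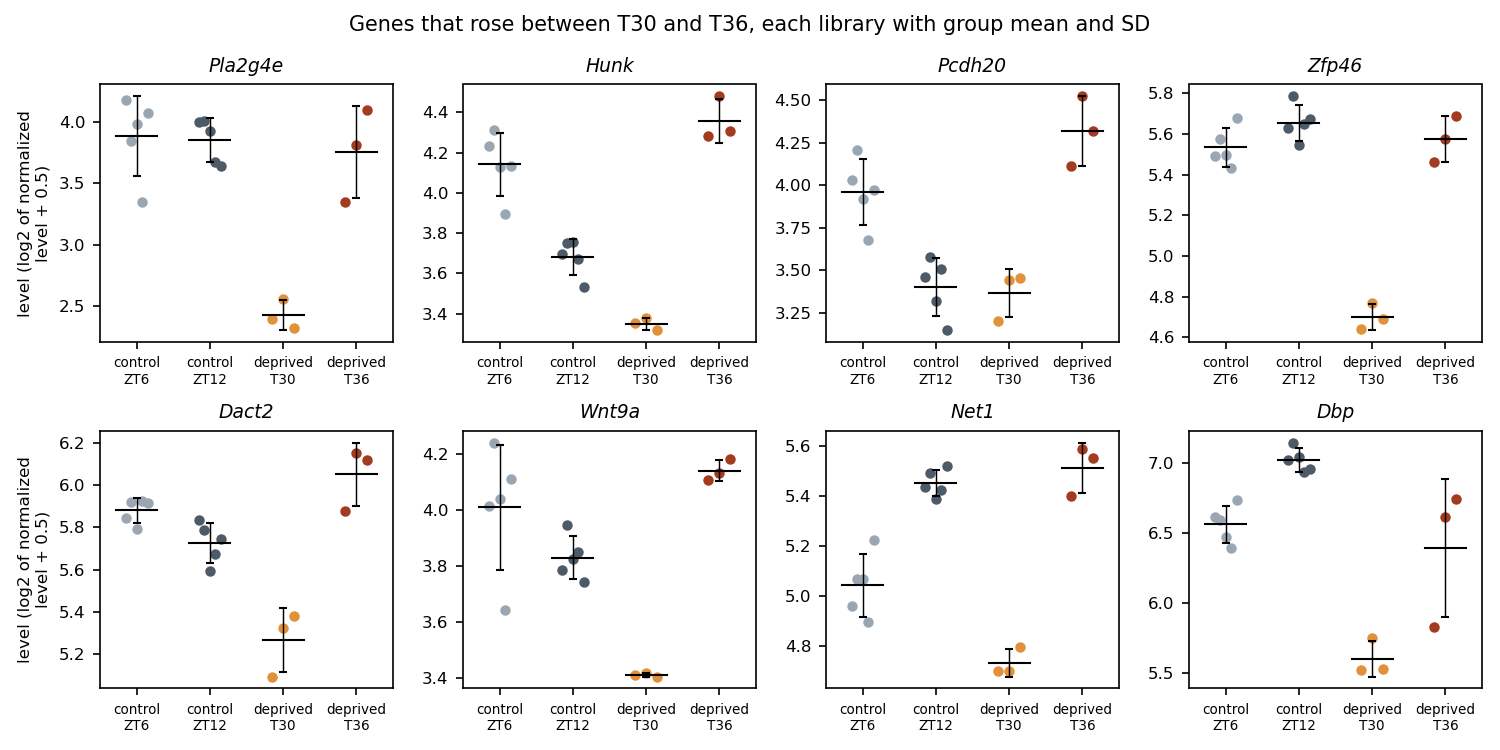
Log2 levels of 8 genes that rose, 1 point per library, with the group mean (line) and SD (bar). The 3 T36 libraries lie above the 3 T30 libraries in every panel; Pcdh20 and Hunk at T36 lie above all ZT12 controls, and Dbp at T36, 5.83 to 6.74, lies below them.

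Sterol synthesis, translation initiation and potassium channel genes changed by -0.48 to 0.79 on the log2 scale, with Kcnj2 highest. Potassium channel genes were called in both directions equally often. Over all genes 6.67% rose and 6.98% fell. Of 24 cholesterol biosynthesis and uptake genes 8 rose and 1, Ebp, fell (controls: none), with 3 of the 8 rises kept whichever library was left out. Insig1, the sterol sensor that retains SREBP, went from 5.52, 5.47 and 5.34 to 5.88, 5.88 and 5.85, a rise of 0.43 (SE 0.11, adjusted p = 0.00425). Fdft1, squalene synthase, rose by 0.27 (SE 0.07). At T36 Insig1 differed from controls by -0.14 (SE 0.10). Eif4ebp1, a repressor of cap-dependent translation, rose from 2.45, 2.24 and 2.27 to 3.03, 2.87 and 2.95, by 0.63 (SE 0.11), whereas its relative Eif4ebp2 changed by -0.33 (SE 0.07); 2 of 25 initiation genes rose and 1 fell, against 6.67% and 6.98% of all genes. Of 32 potassium channel genes 4 rose and 4 fell: the inward rectifiers Kcnj2, Kcnj3 (0.45, SE 0.08) and Kcnj4 (0.41, SE 0.08) rose with Kcns2, and the falls included Kcnf1, Kcng1 and Kcnd3, with changes of -0.38, -0.48 and -0.25. The calls of Kcng1 and Kcnd3 were lost in 4 and 3 of 6 fits with a library left out, with adjusted p up to 0.131 and 0.138. No gene among 26 presynaptic, 37 ribosomal protein and 34 oxidative phosphorylation genes was called in recovery, in controls or in the difference (limma). Of 28 postsynaptic genes 1 rose and 3 fell, with Homer1, already counted above, among the falls.

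Cirbp, a cold-inducible RNA-binding protein, rose part of the way back. Its levels of 6.01, 6.18 and 6.04 became 6.53, 6.59 and 6.83, a rise of 0.57 (SE 0.09, adjusted p = 7.81e-06), and still lay below most controls, 6.79 to 7.06 at ZT12 (T36 minus ZT12 -0.33, SE 0.08). Rbm3, the related protein, had 6.78, 6.81 and 6.74 at T30 and 6.66, 6.99 and 7.18 at T36. Its change of 0.17 (SE 0.10) was not called, the groups overlapped, and at T36 it was lower than controls, by -0.84 (SE 0.09).

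Of 23 clock genes 11 rose and 2 fell in controls, against 1.79% and 2.08% of all genes. In deprived mice 7 rose and 6 fell, against 6.67% and 6.98%. For 5 the recovery change was below the control change, Per1, Per2, Cry1, Bhlhe40 and Csnk1d, and for none above. Over all genes these shares were 5.75% and 5.61%. The difference was lost in 5 of 16 fits with a library left out for Cry1 (adjusted p up to 0.0967) and in 8 for Csnk1d (adjusted p up to 0.207). Per2, a repressor of the clock, had 4.28, 4.27 and 4.41 at T30 and 4.24, 3.86 and 4.37 at T36, a change of -0.16 (SE 0.18). Its controls rose from between 3.11 and 3.74 to between 4.27 and 4.69, by 1.12 (SE 0.14, adjusted p = 4.41e-07), so the deprived mice already held at T30 about the level that controls reached at ZT12. Per1 had 6.14, 5.87 and 6.16 at T30 and 5.43, 5.19 and 5.81 at T36, a change of -0.58 (SE 0.24) that was not called (adjusted p = 0.101), while controls rose by 0.76 (SE 0.18); the difference was -1.34 (SE 0.30, adjusted p = 0.00189). Dbp, an output transcription factor of the clock, rose in both, by 0.80 (SE 0.14) and 0.46 (SE 0.11), and remained lower than controls at T36 (-0.63, SE 0.13). Arntl, the activator BMAL1, fell in both, with changes of -0.33 (SE 0.07) and -0.51 (SE 0.05). E-boxes, the sites through which BMAL1 and CLOCK act, are shown for Per1 and for Ciart, a repressor that rose in both conditions (0.67, SE 0.20, and 0.86, SE 0.16), in capitals within the 250 bases before the start (RefSeq, GRCm38.p6).
Per1: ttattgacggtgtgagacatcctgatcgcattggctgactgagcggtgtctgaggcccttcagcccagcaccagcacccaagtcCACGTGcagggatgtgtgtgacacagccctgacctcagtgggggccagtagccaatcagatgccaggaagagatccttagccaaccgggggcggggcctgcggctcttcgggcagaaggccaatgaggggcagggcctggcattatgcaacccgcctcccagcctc
Ciart: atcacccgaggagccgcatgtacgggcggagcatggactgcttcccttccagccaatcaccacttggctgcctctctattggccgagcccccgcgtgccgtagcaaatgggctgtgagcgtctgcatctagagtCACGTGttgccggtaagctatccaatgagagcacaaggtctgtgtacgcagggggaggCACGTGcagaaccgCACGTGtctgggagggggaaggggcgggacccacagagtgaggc
The windows are chr11:69098699-69098948 on the plus strand, the first of 2 Per1 start sites, and chr3:95882229-95882478 on the minus strand, with 1 and 3 copies of CACGTG. The recovery rise of Ciart was lost in 4 of 6 fits with a library left out (adjusted p up to 0.159). The E-box was found in 5 of 18 clock genes with a window and in 9.78% of the genes of the table with one.

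Glucocorticoid-responsive genes rose in controls as the light period ended, 12 of 18 with 1 fall and a median of 0.38. Over all genes 1.79% rose and 2.08% fell in controls. In deprived mice 2 of the 18 rose and 2 fell, against 6.67% and 6.98% of all genes, with a median of 0.09. The recovery change was below the control change for 8 and above it for none, against 5.75% and 5.61% of all genes. Against controls of the same hour the list had a median of 0.40 at T30 and of -0.02 at T36, so it was already raised when recovery began. Tsc22d3, the glucocorticoid-induced leucine zipper GILZ, had 6.67, 6.34 and 6.66 at T30 and 6.69, 6.41 and 6.39 at T36, a change of -0.06 (SE 0.08), against a control rise of 0.58 (SE 0.06, adjusted p = 4.29e-09). Sgk1, a serum and glucocorticoid-regulated kinase, changed by 0.20 (SE 0.12) against 0.81 (SE 0.10), and Nfkbia, the NF-kappaB inhibitor, by 0.09 (SE 0.09) against 0.64 (SE 0.07). At T36 their differences from ZT12 controls were -0.16 (SE 0.07), -0.27 (SE 0.11) and -0.12 (SE 0.08). Plin4, a lipid droplet protein, rose from 0.98, 0.99 and 1.43 to 2.08, 1.76 and 1.55, by 0.66 (SE 0.20), less than the 1.52 (SE 0.15) of controls, a difference of -0.86 (SE 0.25, adjusted p = 0.0173). Its rise in recovery was lost in 3 of 6 fits with a library left out (adjusted p up to 0.107). Per1, Cdkn1a and Dusp1 stand in this list as well as in others, and the lowest recovery change of the list, -1.76, was that of Dusp1.

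Changes at T27, 3 h into deprivation, in libraries that neither recovery nor control change used, lay in the opposite direction. Against ZT3 controls 1136 genes were higher at T27 (8.21%) and 1020 lower (7.37%). Of the 1136, 574 fell between T30 and T36 and 2 rose; the 574 were 50.5% of the genes raised at T27 and 59.4% of the recovery falls. Of the 1020, 471 rose and none fell; the 471 were 46.2% of the genes lowered at T27 and 51.0% of the recovery rises. The raised genes had a median of 0.30 at T27, 0.29 at T30 and 0.04 at T36 against time-matched controls, and the lowered genes -0.29, -0.27 and -0.02. Their median change in controls from ZT6 to ZT12 was 0.02 and -0.03. Of the 923 rises and 966 falls, 450 and 392 had no call at T27. Across 13842 genes the T27 effect and the recovery change had a Pearson r of -0.67. The recovery change starts from T30, which followed 3 further hours of deprivation.

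Genes that moved in the same direction in both conditions were named after their values were seen. Hif3a, a hypoxia-inducible factor subunit, rose from 2.16, 2.14 and 2.13 to 2.96, 3.30 and 2.83, by 0.89 (SE 0.18), and in controls by 1.28 (SE 0.14). Fabp7, a fatty acid-binding protein of astrocytes, fell in both, with changes of -0.60 (SE 0.14) in recovery and -0.67 (SE 0.11) in controls. Tm6sf2, a lipid-handling membrane protein, and Klf2, a transcription factor of endothelium, moved in opposite directions: -1.37 (SE 0.25) and -0.89 (SE 0.17) in recovery, 0.69 (SE 0.19) and 0.44 (SE 0.13) in controls, where the calls were lost in 6 and 7 of 10 fits with a library left out. Of 12 endothelial markers 2 rose and 1 fell in recovery, against 6.67% and 6.98% of all genes. In controls 2 of them rose and 5 fell, against 1.79% and 2.08%. Their summed level was 348 to 372 at T30 and 381 to 387 at T36, and the part of such markers in the changes was not tested.

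Open chromatin of the same mice, by ATAC-seq, which reads where a transposase can cut, changed at few sites. Of 130727 peaks 88 were called between T30 and T36 (0.0673%), 29 higher and 59 lower, against 659 in controls (0.504%) and 460 for the difference (0.352%), from 3.47 to 4.09 M reads in peaks per T30 library and 3.48 to 3.57 M per T36 library. The recovery count varied with the library left out. Without the T30 library of replicate 1 limma called 0, when 10009 peaks had an unadjusted p under 0.05. The quasi-likelihood test of edgeR on the recovered reads of all libraries called 48. Counts of 66 and 14 came without T30 replicates 3 and 4, and of 28, 41 and 42 without T36 replicates 2, 1 and 4. The control count was 57 without ZT6 replicate 4 and 1332 without ZT6 replicate J76N1, and the difference count 22 without T30 replicate 1. The 88 peaks lay far from start sites: 3.41% were within 1 kb of a start in the RefSeq table, against 11.3% of all peaks. Of the 12 largest RNA falls 7 genes had a promoter peak, Arc not among them, and of the 12 largest rises 10 had one. None of these peaks was called, against 0.0673% of all peaks. The 7 such peaks of the falling genes changed by -0.31 to 0.02 (median -0.15), and the 12 of the rising genes by -0.28 to 0.35 (median 0.07). A peak at chr4:151592732-151593570 (mm10) had a normalized signal of 4.35, 8.58 and 10.7 at T30 and of 25.3, 18.3 and 18.7 at T36, a log2 rise of 1.41 (SE 0.27, adjusted p = 0.0124), while controls fell by 0.90 (SE 0.21), a fall lost in 6 alternatives. A peak at chr3:133933048-133933610 went from 5.80, 6.97 and 7.52 to 2.23, 1.14 and 2.58, a change of -1.59 (SE 0.30, adjusted p = 0.0124). At each site the T30 and T36 libraries did not overlap, and neither peak was near a named gene. These calls were lost in 2 and 3 alternatives, with adjusted p up to 0.210 and 0.115. At chr13:3889383-3890212, 3.78 kb from a start of Net1, a guanine nucleotide exchange factor for RhoA, the signal went from 3.19, 5.90 and 4.61 to 9.18, 8.55 and 12.3, a rise of 1.07 (SE 0.25, adjusted p = 0.0437); the site was singled out after its values were seen, and its call was lost in 8 alternatives (adjusted p up to 0.317). Net1 RNA rose from 4.70, 4.70 and 4.79 to 5.40, 5.59 and 5.55, by 0.78 (SE 0.10), and by 0.41 (SE 0.07) in controls, in which the peak changed by 0.11 (SE 0.19). The difference between conditions was called for Net1 RNA (adjusted p = 0.0372, lost in 9 of 16 fits with a library left out) and not for the peak (adjusted p = 0.138). Within batch 1 alone the Net1 RNA difference was lost (limma, adjusted p = 0.0804).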

How the data were processed

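RNA-seq of cerebral cortex came from 62 mice and ATAC-seq from 59. The RNA values of control T0N5 joined 2 libraries of that mouse and were counted as batch 1. A repeat ATAC library of control T0N3 was left out. The deposited RNA values read as log2 of a depth-normalized level plus 0.5: 30 lie at exactly -1, the log2 floor, all in batch 1, and 23 lie below it, all in batch 2, so batch 2 appears to have been shifted to batch 1 before deposit, a step that no source used here states. Per the labels, each RNA library had over 36 M mappable reads, with a median of 55 M. The deposited ATAC signal is on a per-library scale: 100% of values were whole reads (tolerance 0.02) times a step of the library. The submitters' processing notes name MACS2 2.1.1, kallisto 0.43.0, Bowtie2, HTSeq 0.6.1, sleuth 0.29.0, FastQC, bedtools 2.26.0 and SAMtools, and the builds GRCm38 and mm10, with no role given.

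Here 1 linear model per assay had a mean for each group and a batch term (limma 3.58.1, R 4.3.3, variance trend on the mean level; residual degrees of freedom 44 in RNA and 41 in ATAC, taken as log2 of signal plus 0.5), two-sided, with Benjamini-Hochberg adjustment over all features and calls under 0.05. edgeR 4.0.16 was run on recovered ATAC reads. The model was tested on simulated data. Changes are on the log2(level + 0.5) scale, which understates low genes. P-values measure the spread between single mice, pooled for each feature over all groups of the model. An SE therefore need not match the spread within the groups compared. Named genes are the 12 largest called changes each way in recovery and the 8 in the difference, with T30 and T36 not overlapping and mean level above the 25th percentile, plus list members; 4 peaks each way were chosen likewise. Members, lists and alternatives were chosen with earlier results of these data known. Same-numbered libraries were different mice and were not paired.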

Additional observations from a re-analysis of the deposited data

Results flagged for a closer look

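The 16 genes named for the difference had to pass the test of the difference itself (limma, adjusted p under 0.05). That all 16 pass is therefore a description only. On the log2 scale, recovery change minus control change was -3.72 for Arc (adjusted p = 0.00397), -2.38 for Tnfrsf25, -2.33 for Fos, -2.08 for Junb, -1.997 for Dusp1, -1.94 for Nr4a1, -1.94 for Stac3 and -1.76 for Trib1. It was 1.51 for Pcdh20 (adjusted p = 3.00e-09), 1.47 for Hunk, 1.36 for Pla2g4e, 1.09 for Kcns2, 1.07 for Adam33, 0.99 for Mas1, 0.99 for Lemd1 and 0.96 for Kcnj2. Of the 16, 14 stayed called whichever of the 16 libraries was left out; Fos and Kcnj2 did not. The SD between control mice at ZT6 and ZT12 was 0.95 and 0.80 for Arc and 0.87 and 0.90 for Fos, against 0.19 and 0.17 for Pcdh20 and 0.12 at both times for Kcns2. No control library of the named genes lay far from its group of 5 in the 54 groups examined, where chance alone would give about 1 in 20.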

How the results depend on the processing

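The 122 genes of the text and lists called in recovery kept their direction in all 1690 values of the alternatives run, and 154 of these, in 45 genes, missed the threshold. Leaving out 1 library of the groups compared gave 1138 to 1889 recovery genes, 323 to 562 control genes, 1168 to 1676 for the difference and 1460 to 1845 at T27. Batch 1 alone gave 75 control genes and 722 for the difference, and genes above the 25th percentile of mean level gave 351 control genes. A replicate block, though same-numbered libraries were different mice (residual correlations 0.19 and -0.02 between T30 and T36 for numbers 1 and 4), gave 1756, 390 and 1251 genes for recovery, control and difference, and 94, 417 and 376 peaks. ATAC counts moved most. Leaving out 1 library gave 0 to 66 recovery peaks, 57 to 1332 control peaks and 22 to 821 for the difference; control counts moved over 1.5 times without any ZT6 library or ZT12 replicates 1, 4 or 6, and difference counts without T30 replicates 1 or 4, T36 replicates 1 or 2, any ZT6 library, or ZT12 replicates 4 or 6. edgeR gave 48, 340 and 153 peaks with TMM and 46, 349 and 176 with DESeq2-type size factors. Centring each library gave 60, 484 and 308 peaks, and a pseudocount of 2 gave 130, 755 and 519. The cause of these shifts was not tested. The 3 libraries at each deprived time limit the precision.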
